A study of Homo sapiens with 3 samples.

Results

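The genes described here encode the translation initiation factors, the proteins that bring the ribosome to the start codon of an mRNA. They are the protein coding genes among the symbols in the deposited counts that begin with EIF1 to EIF6, without the EIF2AK kinases, pseudogenes and antisense genes. Of 125 symbols with these beginnings, 4 kinases and 71 pseudogenes and antisense genes were left out, which gave 50 members of 43913 gene rows. Of these 13 encode the subunits EIF3A to EIF3M of eIF3. The counts hold no row of its own for EIF4A1, which was not analysed here.

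Levels come from Drop-seq, which pairs each cell with a barcoded bead inside a droplet and tallies distinct RNA molecules, 1 per unique molecular identifier (UMI). The study made 3 libraries, 1 per condition, and no agent was added to any. One held MM.1S alone, a multiple myeloma line, another HS-5 alone, a stromal line of the bone marrow, and the last held both after 4 h of coculture, the time that the labels give, although some legends of the study name a shorter one. The lines are grown in different media (RPMI for MM.1S and DMEM for HS-5), so a difference between the monocultures holds the media too, and the medium of the sequenced coculture is not given in the sources used here.

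Initiation begins when eIF2 carries the initiator tRNA to the small ribosomal subunit, helped by eIF1, eIF1A, eIF5 and the large scaffold eIF3. The cap-binding factor eIF4E, the scaffold eIF4G and the helicase eIF4A then load this complex onto the capped mRNA, and eIF5B joins the large subunit. Plasma cells secrete large amounts of immunoglobulin, and myeloma cells keep this high demand on protein synthesis. The 4E-binding proteins hold eIF4E back until mTOR phosphorylates them, and eIF2B recharges eIF2, a step that the stress kinases of eIF2 block.

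Barcodes with 200 or more detected genes counted as cells, and the UMIs of all cells of 1 line in 1 culture were added up and scaled to counts per 1000000 UMIs (CPM). In the coculture a cell was given to a line by the share of its UMIs on 63 MM.1S-specific and 164 HS-5-specific genes, which gave 1649 MM.1S and 2104 HS-5 cells, and 103 mixed cells were left out as doublets. The monocultures gave 3947 MM.1S and 3732 HS-5 cells. The median depth was 2201 UMIs per MM.1S cell in monoculture and 668 in coculture, and 971.5 and 957 per HS-5 cell. Ribosomal protein genes took 18.8% of UMIs in MM.1S cells in monoculture and 12.0% in coculture, against 7.54% and 8.63% in HS-5 cells, and their part in the ratios below was tested only by leaving them out of the total. Mitochondrial genes took 6.82% and 4.05% in MM.1S cells and 2.79% and 2.23% in HS-5 cells. The libraries shared 39 to 76 cell barcodes with each other. In monoculture 9 of the 10 plasma cell markers were higher in MM.1S and 9 of the 10 stromal markers higher in HS-5 cells. The exceptions were SDC1 of the plasma cell list (38.1 CPM in MM.1S and 135 in HS-5 cells) and FN1 of the stromal list (810.3 and 252 CPM). Of the 10 plasma cell markers, CD79A was at 0 in MM.1S cells in coculture and in HS-5 cells of both cultures, and at 1 UMI in MM.1S monoculture. LGALS1, S100A6 and TIMP1 of the stromal list also had over 100 CPM in MM.1S monoculture.

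Since each condition is a single library, differences could not be checked against replicates and nothing was tested. The 95% intervals given with levels (exact Poisson) and with ratios and shares of cells (exact binomial) cover counting error only. A difference in the state of the cells and a difference in the preparation of the libraries cannot be told apart. Ratios are log2 ratios of CPM with a pseudocount of 1, over genes that averaged 10 CPM or more in the groups compared, while their intervals carry no pseudocount. The median log2 ratio of all such genes, coculture over monoculture, was 0.24 in MM.1S cells (7837 genes) and -0.04 in HS-5 cells (8813 genes), so a ratio of 0.24 in MM.1S cells is that of the typical gene.

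As a set the members differed little from other genes in their median. In MM.1S cells 44 of the 50 members reached the minimum level, and their median log2 ratio was 0.31. Of these, 10 were at least 2-fold higher in coculture (22.7%, against 19.0% of all genes) and 1 was at least 2-fold lower (2.27%, against 5.81% of all genes). Relative to the median of all genes the split was 7 higher and 3 lower. No share of all genes is given for that split, and the shares above do not apply to it. In HS-5 cells 45 members passed with a median of -0.03. None was 2-fold higher in HS-5 cells, where 1.20% of all genes were, and 1 was 2-fold lower (2.22%, against 1.82% of all genes). The share that was 2-fold higher in MM.1S cells lay near that of all genes. The members that were far apart in MM.1S cells were EIF3B, EIF3A, EIF4G1, EIF5B, EIF2B5, EIF1AX, EIF3J, EIF2S2, EIF4G3 and EIF4G2, all 2-fold higher, and EIF3L, the member that was 2-fold lower.

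**Figure D1:**
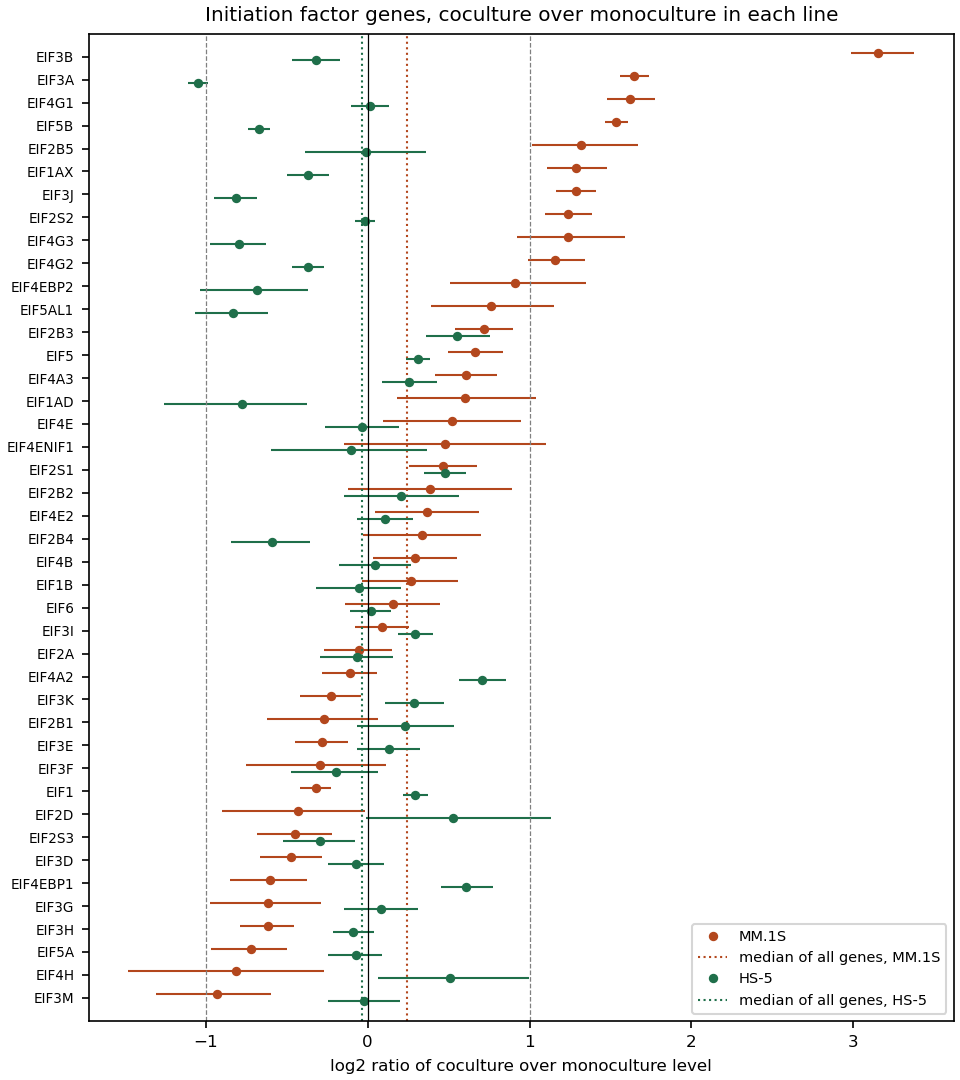
Log2 ratio of coculture over monoculture level (x axis) of each member that averaged 10 CPM or more in both lines (y axis), in MM.1S (brown) and HS-5 cells (green). Bars are 95% counting intervals, dotted lines the medians of all genes (0.24 and -0.04), dashed lines a 2-fold difference. EIF3B is farthest to the right in MM.1S cells at 3.15, and EIF3A is the 1 member beyond 2-fold in HS-5 cells. EIF3L did not reach the minimum in HS-5 cells and is not drawn, nor is EIF1AY.

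The stretches just before the start sites of 3 of these genes are shown, since EIF3B and EIF3J stood apart from the rest of eIF3 in MM.1S cells and EIF4G1 was next among the other members with a RefSeq promoter. They come from RefSeq (GRCh38.p14), are written 5′ to 3′, and hold no exon of their own gene in GENCODE release 29. The stretch of EIF3B lies in the first intron of a longer transcript of that gene, and that of EIF3J begins inside an exon of EIF3J-DT on the other strand. Capitals mark GGGCGG or its reverse complement and CACGTG.
EIF3B, chr7:2354577-2354826 (+), 250 bases: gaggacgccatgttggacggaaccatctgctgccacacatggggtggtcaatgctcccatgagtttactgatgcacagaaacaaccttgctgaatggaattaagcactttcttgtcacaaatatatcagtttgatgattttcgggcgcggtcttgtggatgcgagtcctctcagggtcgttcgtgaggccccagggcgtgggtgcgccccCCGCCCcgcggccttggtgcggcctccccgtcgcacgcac
EIF3J, chr15:44536897-44537056 (+), 160 bases: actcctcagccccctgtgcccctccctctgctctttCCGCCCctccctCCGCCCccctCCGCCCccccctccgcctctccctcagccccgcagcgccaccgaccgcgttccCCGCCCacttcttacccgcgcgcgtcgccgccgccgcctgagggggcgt
EIF4G1, chr3:184314356-184314494 (+), 139 bases: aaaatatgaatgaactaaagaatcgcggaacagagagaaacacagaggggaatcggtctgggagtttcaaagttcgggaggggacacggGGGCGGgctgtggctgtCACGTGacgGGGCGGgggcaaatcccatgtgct
EIF3B held 1 GGGCGG, EIF3J 4 and EIF4G1 2, and EIF4G1 also held 1 CACGTG, the sequence that MYC and related factors bind.

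In the 250 bases before the start, 28 of 42 members with a RefSeq window held GGGCGG on either strand, against 42.3% of 27305 genes. CACGTG was in 11 of 42 members, against 6.49% of genes. Among the 8 members with a window that were 2-fold higher in MM.1S cells in coculture, 4 held GGGCGG and 1 held CACGTG, and of the 29 other members that passed the minimum 20 and 8 did. The STAT-type motif TTCNNNGAA, TATAAA, the ETS-type motif CCGGAAG and the κB motif were in 3, 2, 7 and 0 of the 42 members. They were in none of those 8, and in 6.78%, 11.1%, 8.82% and 6.60% of all genes. At shares this low, counts of 0 among 8 genes tell nothing particular about those genes. EIF3A, EIF2S2 and EIF3L were not among the members with a window.

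The subunits of eIF3 divided in MM.1S cells. EIF3A, EIF3B and EIF3J were at least 2-fold higher in coculture. EIF3I and EIF3F were at the level of monoculture within counting error, and the other subunits that passed the minimum were lower. The median log2 ratio of the 12 subunits that passed was -0.29, which is -0.53 relative to all genes, while the 32 other members had a median of 0.43. In HS-5 cells the median of the 12 subunits that passed was -0.08, with EIF3A and EIF3J the lowest. EIF3A, EIF3B and EIF3J were at least 2-fold higher in both deeper and shallower MM.1S cells, but the median of the subunits moved with depth. Among cells with at least 1000 UMIs the median of the subunits was -0.23, and among cells under 1000 UMIs it was 0.71, with 7 of 12 subunits above 0, but there 1 UMI in monoculture is worth 13.7 CPM.

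EIF3B (chromosome 7, 2354086 to 2380745 on the plus strand, GRCh38 in GENCODE release 29, as for all genes here) encodes a scaffold subunit that binds EIF3A and the small ribosomal subunit. It had 39.0 CPM in MM.1S monoculture, 354 in MM.1S coculture, 247 in HS-5 monoculture and 198 in HS-5 coculture. MM.1S cells in monoculture were thus the low pool, apart from the other 3. The coculture level of 472 UMIs (323 to 388 CPM) was 8.88-fold that in monoculture (407 UMIs, 35.3 to 43.0 CPM), a log2 ratio of 3.15 (2.99 to 3.38). The size went with depth: among cells with at least 1000 UMIs the log2 ratio was 3.02 (2.79 to 3.31), and among cells under 1000 UMIs, with 151 and 383 CPM, it was 1.34 (0.48 to 2.36), or 2.53-fold. The latter rests on 11 UMIs in 77 monoculture cells, whereas 1270 of the 1649 coculture cells are that shallow. In HS-5 cells the ratio was -0.32 (-0.47 to -0.17). EIF3B overlaps SNX8 in the annotation, and the strand setting of the counting is not given in the sources used here.

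EIF3A (chromosome 10, 119033670 to 119080823 on the minus strand), the largest subunit and the frame on which the complex assembles, had 344 CPM in MM.1S monoculture, 1079.5 in MM.1S coculture, 2255 in HS-5 monoculture and 1092 in HS-5 coculture. The lines were far apart in monoculture and met in coculture. Its log2 ratio was 1.65 (1.56 to 1.74) in MM.1S cells and -1.05 (-1.11 to -0.99) in HS-5 cells, and among the members it was the 1 that was 2-fold lower in HS-5 cells. In coculture HS-5 and MM.1S cells differed by a log2 ratio of 0.02 (-0.08 to 0.11), against 2.71 (2.66 to 2.76) between the monocultures.

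EIF3J (chromosome 15, 44537057 to 44563029 on the plus strand), a loosely bound subunit that reaches into the mRNA channel and takes part in recycling, had 213 CPM in MM.1S monoculture, 521 in MM.1S coculture, 409.6 in HS-5 monoculture and 233 in HS-5 coculture. It was higher in MM.1S cells in coculture (1.29, 1.16 to 1.41) and lower in HS-5 cells in coculture (-0.81, -0.95 to -0.69). The order of the lines changed with it, since HS-5 cells were the higher ones in monoculture (0.94) and the lower ones in coculture (-1.16).

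The other subunits moved less in CPM. EIF3I, a small core subunit, had 234 and 249 CPM in MM.1S cells (0.09, -0.08 to 0.26), and EIF3G, which binds EIF3I and RNA, had 91.2 and 59.3 (-0.61). EIF3D, the subunit that can bind the cap, had 258 and 186 (-0.47). Among the subunits of the octameric core, EIF3E had 311 and 255 CPM (-0.28), EIF3F 47.3 and 38.3 (-0.30, -0.75 to 0.11), EIF3H 376 and 245 (-0.62), EIF3K 229 and 195 (-0.23), and EIF3M 104 and 54.1 (-0.93). All of these but EIF3I were lower in MM.1S cells in coculture, with an interval below 0 except for EIF3F. In HS-5 cells their log2 ratios lay between -0.20 (EIF3F) and 0.30 (EIF3I).

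EIF3L was the member with the lowest ratio in MM.1S cells (-1.98, -3.37 to -1.15), but on 8 UMIs in coculture (6.01 CPM) against 277 in monoculture (26.6 CPM). In HS-5 cells it had 9.61 and 8.88 CPM, under the minimum of 10. EIF3C was counted at only 31 and 6 UMIs in MM.1S cells (2.97 and 4.50 CPM) and 13.4 and 11.3 CPM in HS-5 cells, and EIF3CL at 5 and 1 UMIs in MM.1S cells and 11 and 13 in HS-5 cells. These genes are near-identical copies on chromosome 16 between which reads cannot be placed with certainty, so their levels are uncertain.

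**Figure D2:**
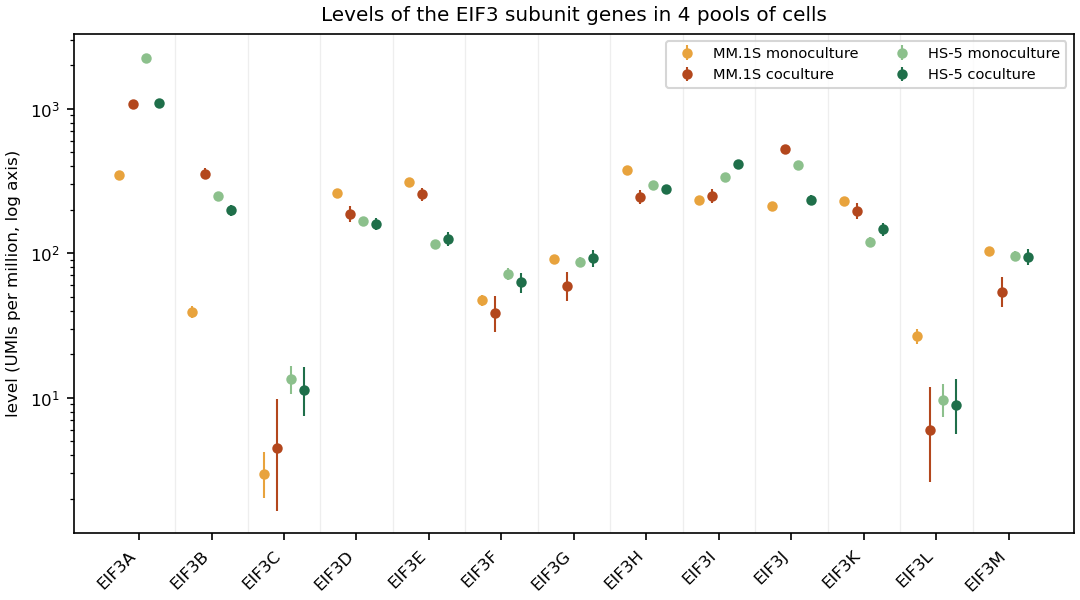
Levels of the 13 EIF3 subunit genes (x axis) in CPM on a log axis (y axis) in the 4 pools of cells, each 1 point with its 95% Poisson interval. MM.1S monoculture is the lowest pool for EIF3A, EIF3B and EIF3J, with 39.0 CPM of EIF3B against 354 in coculture.

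The share of eIF3 transcripts that came from each subunit shifted accordingly. EIF3A, EIF3B and EIF3J, a group chosen after their values were seen, made up 26.2% of the 23742 eIF3 UMIs in MM.1S monoculture (25.6 to 26.8%) and 60.2% of 4326 in coculture (58.7 to 61.7%). In HS-5 cells their share went the other way, from 69.0% of 25931 UMIs in monoculture (68.4 to 69.5%) to 52.2% of 7214 in coculture (51.1 to 53.4%). The 10 other subunits together had 1679 CPM in MM.1S monoculture and 1293 in coculture, and 1310.4 and 1391 in HS-5 cells. EIF3A alone was 15.1% of eIF3 UMIs in MM.1S monoculture, 33.2% in MM.1S coculture, 53.4% in HS-5 monoculture and 37.5% in HS-5 coculture.

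Among the factors around eIF3, EIF5B and the eIF4G scaffolds stood with EIF3A in MM.1S cells. EIF5B, the GTPase that joins the ribosomal subunits, had 589 CPM in MM.1S monoculture, 1709 in MM.1S coculture, 1421 in HS-5 monoculture and 891 in HS-5 coculture, with log2 ratios of 1.54 (1.47 to 1.61) in MM.1S and -0.67 (-0.74 to -0.61) in HS-5 cells. EIF4G1, the main scaffold of the cap-binding complex, had 125 CPM in MM.1S monoculture, 387 in MM.1S coculture, 320.1 in HS-5 monoculture and 323 in HS-5 coculture. MM.1S monoculture was again the low pool, and the HS-5 pools did not differ beyond counting error (0.02, -0.11 to 0.13). EIF4G2, a scaffold that does not bind eIF4E, had a ratio of 1.16 (113 and 253 CPM) in MM.1S cells and -0.37 in HS-5 cells. EIF4G3, a paralog of EIF4G1, had 1.24 (31.6 and 75.8 CPM) and -0.79.

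The cap-binding and helicase side was mixed. EIF4E, the cap-binding protein, had a log2 ratio of 0.52 (0.10 to 0.95) in MM.1S cells, on 303 UMIs in monoculture and 56 in coculture, and 92.6 and 90.5 CPM in HS-5 cells (-0.03). With the trend of transcript length removed, as described below, its ratio in MM.1S cells was -0.0066. EIF4E2, a cap-binding paralog linked to repression, had ratios of 0.37 and 0.11. The inhibitors of eIF4E differed from each other. EIF4EBP1 was lower in MM.1S cells in coculture (184 and 121 CPM, -0.60) and higher in HS-5 cells (136 and 208, 0.61), whereas EIF4EBP2 was higher in MM.1S cells (23.9 and 45.8 CPM, 0.91) and lower in HS-5 cells (-0.68). Of the helicase genes, EIF4A2 had -0.11 in MM.1S cells and 0.70 in HS-5 cells, the highest ratio there of a member that passed (160.2 and 262 CPM), and EIF4A3, the helicase of the exon junction complex, had 0.61 and 0.26. EIF4H, a cofactor of the helicase, was among the lowest in MM.1S cells (-0.81, 26 UMIs in coculture) and had 0.51 in HS-5 cells. EIF4A2 shares its span with several small RNA genes and RFC4.

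The subunits of eIF2 and of its exchange factor eIF2B differed among themselves. EIF2S2, the beta subunit of eIF2, had 164 CPM in MM.1S monoculture, 389 in MM.1S coculture, 1282 in HS-5 monoculture and 1267 in HS-5 coculture, with ratios of 1.24 (1.10 to 1.38) and -0.02. HS-5 cells were high in both cultures. Its 4 pseudogene rows together held 8.91 and 54.8 CPM in MM.1S cells and 177 and 168 in HS-5 cells, so part of its reads may have been counted there. EIF2S1, the alpha subunit that the stress kinases phosphorylate, had 0.46 and 0.48, and EIF2S3, the GTP-binding gamma subunit, -0.45 and -0.30. In MM.1S cells EIF2B5, the catalytic subunit of eIF2B, had a ratio of 1.32 (30.4 and 77.3 CPM, 103 UMIs in coculture), EIF2B3 0.72, EIF2B2 0.39, EIF2B4 0.34 and EIF2B1 -0.27. In HS-5 cells they lay between -0.59 (EIF2B4) and 0.55 (EIF2B3), with EIF2B5 at -0.0077. EIF2D, which can deliver tRNA without eIF2, had -0.43 in MM.1S cells and 0.53 in HS-5 cells.

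Of the scanning factors, EIF1AX had 96.5 CPM in MM.1S monoculture, 237 in MM.1S coculture, 324 in HS-5 monoculture and 251 in HS-5 coculture. Its ratio was 1.29 (1.11 to 1.48) in MM.1S cells and -0.37 in HS-5 cells. EIF1, the guard of start codon choice, had 921 and 738 CPM in MM.1S cells (-0.32) and 651 and 799 in HS-5 cells (0.29), and its paralog EIF1B had 0.27 and -0.05. EIF1AD, named for its eIF1A-like domain, had 0.60 and -0.78. EIF5, the GTPase activator of eIF2, was higher in both lines (0.66 and 0.31) and EIF6, which keeps the ribosomal subunits apart, differed little (0.16 and 0.02). EIF5A, the factor that helps ribosomes through stalling motifs, had 204 and 123 CPM in MM.1S cells (-0.72) and -0.07 in HS-5 cells. EIF5AL1, a near-identical copy, had 0.76 and -0.83, which is uncertain for that reason. EIF4E1B, EIF4E3, EIF4EBP3 and EIF3CL stayed under the minimum in both lines, and EIF3C and EIF5A2 did so in MM.1S cells. EIF1AY was counted as a member, and its values are not given.

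Some members went opposite ways in the lines. Of the 43 members that passed in both, 17 had a positive log2 ratio in MM.1S and a negative one in HS-5 cells, 9 the reverse, 10 were positive and 7 negative in both. No share of all genes is given for these counts of signs. The medians of all genes also have opposite signs (0.24 in MM.1S and -0.04 in HS-5 cells), so these counts do not set the members apart. With both intervals clear of 0, 14 of 43 members went opposite ways (32.6%), against 23.3% of 6756 genes. The difference itself was not tested, and the coculture library is common to both comparisons.

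Apart, the lines differed in many of these genes. The comparison uses the same monoculture libraries as those above. Between the monocultures 45 members passed the minimum, and 16 were at least 2-fold higher in HS-5 cells (35.6%, against 38.1% of all genes) and 3 at least 2-fold lower (6.67%, against 15.3%). The median of the members was 0.47 and that of all 8734 genes 0.56. Relative to the latter the split was 11 higher and 13 lower, with no such share of all genes given. Highest in HS-5 cells were EIF5A2, a paralog of EIF5A (4.22 CPM in MM.1S and 40.7 in HS-5 cells, with an interval of 2.80 to 3.77 for the log2 ratio), EIF2S2 (2.95), EIF4G3 (2.84), EIF3A (2.71) and EIF3B (2.63). EIF4G2 (2.30) and EIF5 (2.18) came next. Lowest were EIF2D (49.0 and 11.7 CPM, -1.97), EIF3E (311 and 115 CPM, -1.42) and EIF3L (-1.38).

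Within the coculture both lines shared 1 library, and the comparison of their cells was added after the data were seen. There 6 of 44 members were at least 2-fold higher in HS-5 cells (13.6%, against 26.1% of all genes) and 4 at least 2-fold lower (9.09%, against 15.8%). Relative to the median of all 8893 genes (0.17) the split was 5 and 7, with no such share of all genes given. The higher ones were EIF5A2 (2.21), EIF5 (1.82), EIF6 (1.81), EIF2S2 (1.70), EIF4E2 (1.17) and EIF4E (1.09), and the lower ones EIF3J (-1.16), EIF2B5 (-1.15), EIF3E (-1.01) and EIF2D (-1.01). EIF6 (1.95 between the monocultures), EIF2S1 (0.88 and 0.89) and EIF2A (-0.74 and -0.75) had nearly the same ratio in both comparisons. EIF5B went from 1.27 between the monocultures to -0.94 in coculture. The median size of the log2 ratio between the lines was 0.812 in monoculture and 0.684 in coculture over 44 members, of which 28 (63.6%) had the smaller difference in coculture, as did 62.2% of 8315 genes.

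**Figure D3:**
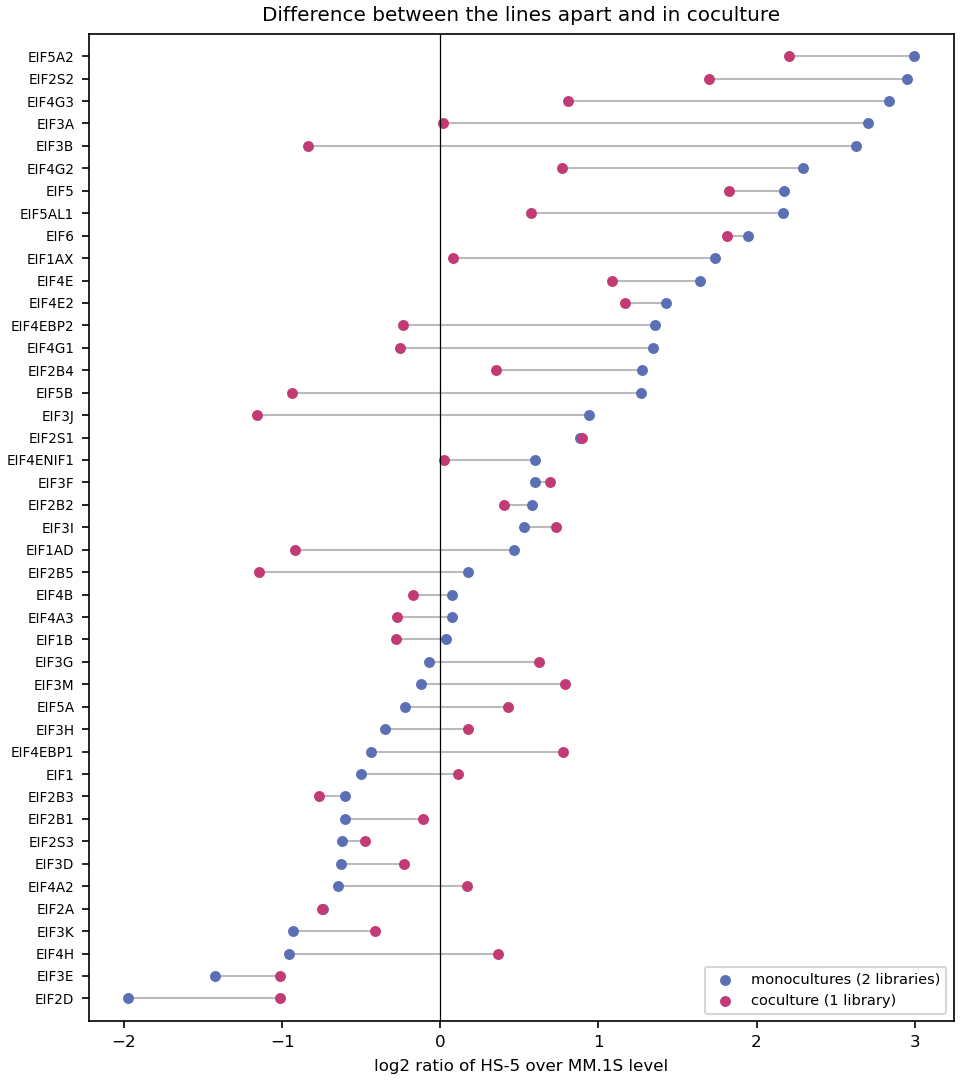
Log2 ratio of HS-5 over MM.1S level (x axis) of each member that passed the minimum in both comparisons (y axis), between the monocultures (blue) and within the coculture (pink), joined by a line. EIF3B goes from 2.63 to -0.84 and EIF3A from 2.71 to 0.02, while EIF6 stays near 1.81. EIF1AY is not drawn.

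The differences were spread over many cells. With each cell thinned to 1000 UMIs, EIF3B was seen in 4.08% of 3870 MM.1S cells in monoculture (3.48 to 4.75%) and 26.4% of 379 in coculture (22.0 to 31.1%), and no cell in coculture held more than 5 of its UMIs. Without thinning the shares were 9.32% and 23.5%. EIF3A was seen in 28.1% and 61.2% of MM.1S cells, and, in HS-5 monoculture, in 85.4% of 1802 cells, with 60.0% of 999 in HS-5 coculture. Without thinning these 4 shares were 52.8%, 52.5%, 90.1% and 63.4%. EIF5B was seen in 42.4% and 74.9% of MM.1S cells and in 74.9% and 52.8% of HS-5 cells. Thinning left out 1270 MM.1S cells in coculture, so its shares come from the deeper cells.

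As a background, COL6A2, a collagen gene of HS-5 cells, was seen in 0.264% of MM.1S cells in coculture and 37.5% of HS-5 cells, and MZB1, a plasma cell gene, in 0.901% of HS-5 cells in coculture and 78.9% of MM.1S cells. Both genes meet the rule for line-specific genes, by which cells were assigned to lines and mixed cells left out. Their low shares in the other line, and the estimate from all line-specific genes that follows, are thus limited in part by that split. From all line-specific genes, RNA of the other line was 1.58% of UMIs in MM.1S and 0.706% in HS-5 cells in coculture. After subtraction the log2 ratio in MM.1S cells was 3.16 for EIF3B, 1.64 for EIF3A and 1.55 for EIF5B. RNA of the other line was higher in coculture than in monoculture by some of its markers. COL1A1 had 1.63 and 9.01 CPM in MM.1S cells and SPARC 0.479 and 4.50, and JCHAIN had 0.977 and 27.9 CPM in HS-5 cells and MZB1 0.163 and 8.88. The median of the 10 stromal markers in MM.1S cells was 2.92 CPM in monoculture and 9.01 in coculture, and that of the 10 plasma cell markers in HS-5 cells 1.14 and 5.45. The summed level of the stromal markers in MM.1S cells, mostly S100A6 (2926 and 1842), LGALS1 (1847 and 1445) and FN1 (810.3 and 2227), was 5825 CPM in monoculture and 5721 in coculture, and that of the plasma cell markers in HS-5 cells, mostly SDC1, 208 and 223 CPM.

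**Figure D4:**
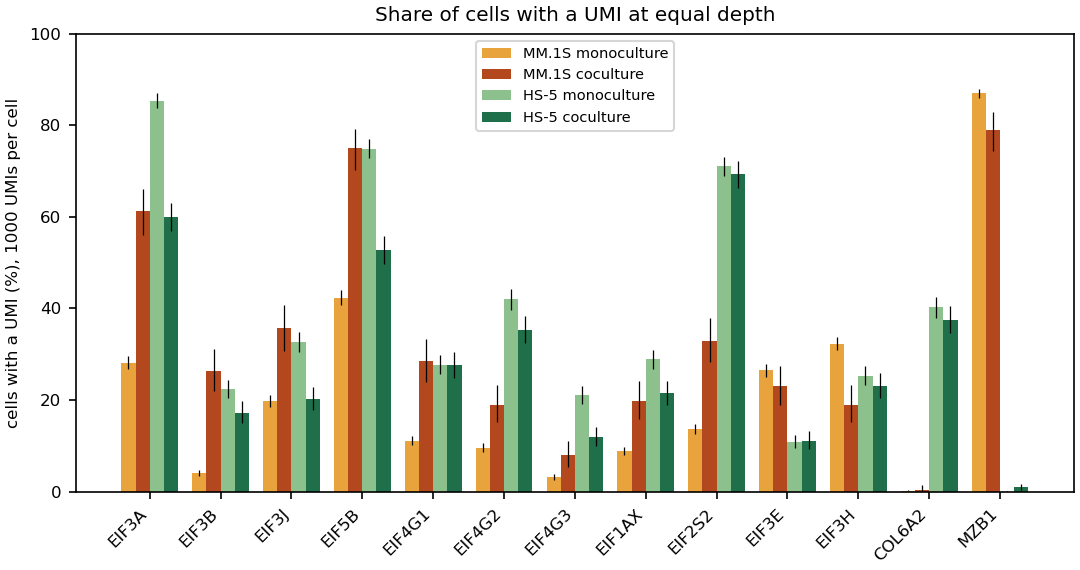
Share of cells with at least 1 UMI (y axis, percent) of 11 members and of the line markers COL6A2 and MZB1 (x axis) after thinning each cell to 1000 UMIs, in the 4 pools. Bars carry 95% Clopper-Pearson intervals. EIF3B is seen in 4.08% of MM.1S cells in monoculture and 26.4% in coculture, and COL6A2 in under 1% of MM.1S cells. COL6A2 and MZB1 also served to assign coculture cells to lines.

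Depth differed within pools as well, and the levels moved with it. In MM.1S cells in coculture EIF3A had 1164 CPM in the 1270 cells under 1000 UMIs and 967 in the 379 cells at or above it. In HS-5 monoculture it had 3409 and 1938 CPM, and in HS-5 coculture 1387 and 972. In MM.1S monoculture the 77 shallower cells had 439 CPM and the deeper ones 344. The shallower cells were higher beyond counting error in the other 3 pools, and in MM.1S monoculture the intervals overlap. Within the strata the log2 ratio in MM.1S cells was, for EIF3A, 1.49 (1.36 to 1.62) in deeper and 1.41 (0.90 to 1.96) in shallower cells. EIF5B had 1.35 (1.25 to 1.45) and 1.36 (0.97 to 1.79), and EIF4G1 1.42 (1.20 to 1.64) and 1.62 (0.73 to 2.71). EIF3J had 1.17 (0.99 to 1.35) and 2.00 (1.11 to 3.08), on 10 UMIs in the shallower monoculture cells. These 4 members were at least 2-fold higher in both strata, as was EIF3B. In HS-5 cells EIF3A had -0.99 (-1.07 to -0.92) in deeper cells, just short of 2-fold, and -1.30 (-1.40 to -1.20) in shallower ones. Among shallower MM.1S cells the median of the members was 0.94, against 0.17 for all genes, and among deeper ones 0.26, against 0.24. The shallower monoculture cells hold only 72932 UMIs, where 1 UMI is worth 13.7 CPM, so the ratios of weakly counted members are coarse there.

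The ratios also went with transcript length, which the choice of members did not use, and in opposite directions in the lines. In MM.1S cells the 9 members whose longest transcript was among the longest 25% of all genes had a median log2 ratio of 1.16 and the 10 in the shortest 25% -0.25, against 0.51 and -0.13 for all genes of those lengths. In HS-5 cells the medians were -0.45 and 0.08, against -0.16 and 0.17. Spearman's rho between length and ratio was 0.44 over 44 members in MM.1S cells and -0.34 over 45 in HS-5 cells, against 0.28 and -0.27 over all genes. Between the monocultures it was 0.50 over the members and 0.27 over all genes, and between the lines within the coculture 0.18 and 0.06. The trend was thus not particular to the members. Genes of 1 sample share its library and depth and are not independent. EIF3A (6646 bases), EIF5B (5777) and EIF4G1 (5667) are long, whereas EIF3B (3745) and EIF3J (2569) are not. With the trend of length removed, the ratio in MM.1S cells was 2.83 for EIF3B, 1.13 for EIF3A and 1.11 for EIF3J. It was 1.11 for EIF4G1 and 1.03 for EIF5B. With the trend removed 6 members were left 2-fold higher, and no share of all genes is given for that count. Of the 10 that were 2-fold higher, 5 have a run of 8 or more A in their longest transcript outside its last 100 bases, as do 15 of the 44 members that passed. EIF3A, EIF3B and EIF4G1 have none.

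Genes that work beside the initiation factors were read from 4 lists. Of the 12 partners of the cap and the poly(A) tail and of the mTOR arm that passed in MM.1S cells, 6 were at least 2-fold higher in coculture and 2 at least 2-fold lower, with a median of 0.97, beside 19.0%, 5.81% and 0.24 over all genes. MKNK2, a kinase of eIF4E, was highest (30.0 and 108 CPM in monoculture and coculture, 1.82), with PABPC4, a poly(A)-binding protein (1.52). Under the alternative settings MKNK2 had 0.26 to 2.07 and PABPC4 0.85 to 1.57. PDCD4, an inhibitor of eIF4A, was lowest (86.9 and 39.8 CPM, -1.11), next to PAIP2B, which holds back poly(A)-binding protein (-1.07). In HS-5 cells none of 12 was past 2-fold, beside 1.20% of all genes higher and 1.82% lower. At shares this low a count of 0 among 12 genes tells little. PAIP2 (54.4 and 105 CPM, 0.94) and PDCD4 (0.55) were highest there, and DDX3X, an RNA helicase (-0.43), and LARP1, which binds mRNAs of the translation machinery (-0.40), lowest.

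In the list of eIF2 kinases, phosphatase and stress response, 2 of 11 genes in MM.1S cells were 2-fold higher and another 2 were 2-fold lower, beside 19.0% and 5.81% of all genes. ATF4, the transcription factor made when eIF2 is phosphorylated, had 88.6 and 371 CPM in monoculture and coculture (2.05), and PPP1R15B, a subunit that brings the phosphatase to eIF2, 1.44. The phosphatase subunit PPP1CA had -1.42, and PPP1R15A, the stress-induced partner and a target of ATF4, -1.36 on 7 UMIs in coculture. In HS-5 cells 1 of 11 was 2-fold lower, beside 1.82% of all genes, namely TRIB3, a target of ATF4 (27.4 and 9.29 CPM, -1.46). ATF4 was next lowest at -0.93, and the kinases EIF2AK2 (0.21) and EIF2AK1 (0.21) were highest. The other stress genes of the list did not move with ATF4 as a group. In MM.1S cells TRIB3 had 0.16 and DDIT3 -0.61, and in HS-5 cells DDIT3 had -0.06 and ATF3 -0.12. CHAC1 and ASNS stayed under the minimum in both lines, as did ATF3 in MM.1S cells.

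Of the factors for elongation and termination, 2 of 9 in MM.1S cells were 2-fold higher, a share near the 19.0% of all genes. They were the release factors ETF1 (1.34) and GSPT1 (1.20), while EEFSEC, the factor for selenocysteine (-0.30), and EEF2, the translocation factor (-0.18), were lowest. In HS-5 cells none of 10 was past 2-fold, beside 1.20% of all genes higher and 1.82% lower. TSFM (0.74), a mitochondrial elongation factor, and EEF1E1 (0.20) were highest there, and EEF2 (-0.40) and GSPT1 (-0.32) lowest. Of the 11 other recycling and start codon factors, 3 were 2-fold higher in MM.1S cells, again beside 19.0% of all genes, led by the helicase DHX9 (1.59) and by DOHH (1.45), which completes the hypusine of eIF5A. DHPS, which begins it, was lowest (-0.93), next to MCTS1, a recycling factor whose 88.8 and 88.6 CPM hardly differed. In HS-5 cells none was past 2-fold, beside the same 1.20% and 1.82% of all genes. DHX9 (0.41) and DHPS (0.27) were highest there. ABCF1, an initiation factor of the ABC family (-0.65), and METAP1, which removes the first methionine (-0.61), were lowest.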

How the data were processed

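Single-cell transcripts were measured by Drop-seq in 1 library each of MM.1S monoculture, HS-5 monoculture and 4 h coculture. The deposited values are UMI counts by gene and barcode, which the authors had not normalized. Per the submitters' processing notes the builds are GRCh38 and hg38 and the tools include Cell Ranger 3.0.2, UMI-tools 1.0.0, STAR 2.5.3a, featureCounts 1.6.4 and SAMtools 1.9, with no order given, and the study's methods name Seurat v2.4. Totals were 3981392 to 10433182 UMIs per library, and 3 UMIs are worth 0.288 to 2.25 CPM in the 4 pools.

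Members and lists were chosen with earlier results of these data known. The genes named are all EIF3 subunits, the 5 highest and 5 lowest other members per comparison, the paralog groups, the subunits of eIF2 and eIF2B, and the 2 highest and 2 lowest genes of each context list in each line. Further stress genes of the eIF2 list were added after their values were seen. Line-specific genes were at least 50-fold higher in 1 monoculture, with at least 50 CPM there and members left out. Coculture cells were called MM.1S where HS-5-specific genes gave at most 0.2 of line-specific UMIs, and HS-5 where they gave at least 0.8, and doublets within a line were not seen. Gene positions, types and transcript lengths were read from GENCODE release 29 on GRCh38, in which 97.3% of the symbols were found, and 42 of 50 members had a RefSeq promoter window. The steps were tested on simulated data. Python 3.11.15, numpy 2.4.6, scipy 1.17.1 and matplotlib 3.10.9 were used. The alternatives were 15 settings of cell filters, line limits, scaling, pseudocount, minimum level, free RNA and length, and, chosen after seeing the data, 1 setting that adds pseudogene rows to their parents and 1 of only cells under 1000 UMIs. No column of the authors' own comparisons was used.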

Additional observations from a re-analysis of the deposited data

Results flagged for a closer look

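With 1 library per condition, no group holds enough samples for a check of single outlying samples. The log2 ratios of coculture over monoculture went opposite ways in the lines, with both counting intervals clear of 0, for 14 members; the difference between the lines was not tested, and both comparisons use the coculture library. In 10 of them the ratio was positive in MM.1S and negative in HS-5 cells (23.3% of 43, against 15.2% of all genes). The ratio in MM.1S minus that in HS-5 cells was 3.47 for EIF3B, 2.69 for EIF3A, 2.21 for EIF5B, 2.10 for EIF3J, 2.03 for EIF4G3, 1.66 for EIF1AX, 1.60 for EIF4EBP2, 1.60 for EIF5AL1, 1.53 for EIF4G2 and 1.38 for EIF1AD. In the other 4 it was negative in MM.1S and positive in HS-5 cells (9.30%, against 8.02% of all genes), with differences of -1.32 for EIF4H, -1.21 for EIF4EBP1, -0.61 for EIF1 and -0.51 for EIF3K. Over the alternative settings the ratio in MM.1S cells changed sign for EIF4EBP1 (-0.85 to 0.44) and EIF3K (-0.47 to 0.61). That in HS-5 cells did so for EIF3K (-0.05 to 0.32).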

How the results depend on the processing

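No paired analysis was possible because each condition is 1 library, and for the same reason no library could be left out. Of 238 values (14 medians and counts under 17 settings), 203 stayed within the counting interval or within 1.5 times the count, and of the named 2-fold differences 1 changed sign, namely EIF2D between the monocultures (-1.97), which had 3.44 among cells under 1000 UMIs, where 1 UMI in MM.1S monoculture is worth 13.7 CPM. Of 3400 values of named genes over the settings, 422 moved past their limit. Of these, 104 came from cells under 1000 UMIs, 78 from removing the length trend and 73 from centring. Ratios short of 2-fold also changed sign for many named genes. Among them in MM.1S cells were EIF3M (-1.44 to 0.81), EIF3G (-0.85 to 6.03) and EIF2D (-0.94 to 4.84). Others there were EIF2B1 (-0.51 to 2.09), EIF4EBP1 (-0.85 to 0.44), EIF3K (-0.47 to 0.61), EIF2B2 (-0.37 to 0.86), EIF2S3 (-0.69 to 0.04) and EIF3I (-0.15 to 1.14). Over the settings the log2 ratio in MM.1S cells was 1.34 to 3.18 for EIF3B, 1.13 to 1.74 for EIF3A, 1.05 to 2.00 for EIF3J and -2.65 to -0.73 for EIF3L, and in HS-5 cells -1.30 to -0.89 for EIF3A.

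Between the monocultures, the median of the members (0.47) was 0.21 without ribosomal protein and mitochondrial genes in the total, -0.10 when centred on all genes and -0.13 with the length trend removed. With the trend removed, 2-fold higher members numbered 6 in MM.1S cells and 9 between the monocultures, and 2-fold lower ones 2 in MM.1S cells, 0 in HS-5 cells, 7 between the monocultures and 7 between the lines in coculture. Centred on all genes, 2-fold lower members numbered 3 in MM.1S cells, 13 between the monocultures and 7 within the coculture. Without ribosomal protein and mitochondrial genes they numbered 2 in MM.1S cells, 6 between the monocultures and 6 within the coculture. Under the stricter limits on genes per cell and mitochondrial UMIs they numbered 2 in MM.1S cells and 7 between the monocultures, and 1 member was 2-fold higher in HS-5 cells. With equal weight per cell, 2 were 2-fold lower in MM.1S cells, 2 in HS-5 cells and 5 between the monocultures, and 1 was 2-fold higher in HS-5 cells. A minimum of 50 CPM left 0 members 2-fold lower in MM.1S cells and 1 between the monocultures, since fewer genes entered, and no minimum gave 1 member 2-fold higher in HS-5 cells. Only cells with at least 1000 UMIs left 0 members 2-fold lower in HS-5 cells, where 2.14% of all genes were. A pseudocount of 5 left 2 members 2-fold lower within the coculture. Among cells under 1000 UMIs, a setting chosen after seeing the data in which MM.1S monoculture holds only 72932 UMIs, the medians of the members were 0.94 in MM.1S cells, 0.19 in HS-5 cells and 0.95 between the monocultures, and those of the eIF3 subunits 0.71 in MM.1S and 0.20 in HS-5 cells. There 21 members were 2-fold higher in MM.1S cells, where 25.01% of all genes were, and 2 in HS-5 cells, where 7.99% were. In HS-5 cells 4 members were 2-fold lower, against 5.97% of all genes, and within the coculture 1 was, against 16.1%. For the settings not split at 1000 UMIs no share of all genes is given. Their counts describe the members alone and do not set them apart from other genes. Where no reason is given, the cause was not tested. In MM.1S cells in coculture, depth limits EIF4E1B, EIF3CL, EIF4EBP3, EIF3C, EIF5A2, EIF3L and EIF4E3 most, with 0 to 8 UMIs each.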
